A study of Mus musculus with 12 samples.

Results

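Erythroid cells that had received an siRNA against the zinc importer ZIP10 together with the chelator DTPA (siZIP10 plus DTPA, 3 libraries) were compared with cells that had received a control siRNA and no chelator (siControl, 3 libraries). These 6 of the 12 samples in the series were chosen by their treatment labels, and the comparison was made across the 11379 genes that averaged 1 TPM or more (TPM is a length-corrected share of all transcripts, scaled to sum to 1e+06 in each library). All cells were of the G1E-ER4 line, mouse erythroid progenitors that lack GATA1 and carry a form of it fused to the estrogen receptor. The siRNAs were delivered by nucleofection on 2 occasions 24 h apart. In every group, controls included, 100 nM β-estradiol was added at the second delivery to start maturation, and RNA was taken 24 h later. DTPA, a chelator that binds zinc and other metal ions outside the cell, was present at 25 µM during those 24 h. The single treatments, siZIP10 (3 libraries) and siControl plus DTPA (2 libraries), were used to ask how the combination differed from each part. The groups used here hold a single cell line, no cells with zinc added back and no other siRNA against ZIP10, and neither ZIP10 protein nor zinc was measured in these files.

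ZIP10, encoded by Slc39a10, brings zinc into the cytoplasm, and ZnT1, encoded by Slc30a1, removes it across the plasma membrane. The transcription factor MTF1 senses cytoplasmic zinc and, when zinc is plentiful, switches on the metallothioneins Mt1 and Mt2, small proteins that bind zinc, as well as Slc30a1. Zinc is also a structural part of the zinc fingers of GATA1. Many enzymes need it, among them the heme synthesis enzyme ALAD and the carbonic anhydrases. When GATA1 becomes active, an erythroid progenitor turns down Gata2, Kit and Myb, turns up globin, heme and red cell membrane genes, and stops dividing after a few rounds.

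The deposited values for siControl plus DTPA replicate 3 were those of siZIP10 replicate 1 for all 15225 genes above 0, so that library was left out of every comparison and 11 libraries were used. The depth recovered from the values ranged from 19.6 M to 24.7 M reads per library. Libraries of siZIP10 plus DTPA correlated with each other at 0.988 to 0.989 (Pearson r of log2 values across genes) and with siControl libraries at 0.939 to 0.941. All 9 erythroid markers in the table were detected in every library, although 7 of them were called lower in siZIP10 plus DTPA and 2 higher (median log2 change −0.98). Their summed level, most of it Hbb-bs, 33965 to 36367 TPM in siZIP10 plus DTPA and 35601 to 40399.8 TPM in siControl. Several defining markers of other blood lineages were at 0 TPM in all 6 libraries: Mpo, Elane and Itgam of myeloid cells, Cd8a and Rag1 of lymphoid cells, Mcpt8, Fcer1a and Cma1 of mast cells and basophils, and Ppbp and Gp6 of megakaryocytes. Other markers of those lineages were present and higher in siZIP10 plus DTPA, among them Itgb3, Gp1ba and Itga2b, and are given below with the largest rises.

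The make-up of the libraries differed between the groups. Mitochondrial rRNA took 1.43% to 1.45% of TPM in siZIP10 plus DTPA, against 0.262% to 0.282% in siControl (means 1.439 ± 0.00626% and 0.2693 ± 0.0112%, SD, n = 3 each). Cytosolic ribosomal protein genes took 10.9% to 11.3% in siZIP10 plus DTPA and 8.18% to 8.49% in siControl, and a single nuclear rRNA gene, CT010467.1, stood at 12037 TPM on average in siZIP10 plus DTPA and 4375 TPM in siControl. Genes annotated as miRNAs took 3.29% to 4.87% in siZIP10 plus DTPA and 1.72% to 2.24% in siControl. Nuclear protein-coding genes, ribosomal protein genes included, were left with 77.3% to 79.6% of TPM in siZIP10 plus DTPA and 83.6% to 83.8% in siControl. The groups did not overlap in any of these shares, but 3 against 3 libraries cannot give an exact two-sided permutation p under 0.1, and each share gave p = 0.1. A larger share of one class lowers the TPM of all others. Calls against siControl were therefore also counted with TPM rescaled to nuclear protein-coding genes, over all tested genes and by list. Interactions were recounted in this way over all tested genes only. The other counts below were made on TPM as deposited.

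**Figure D1:**
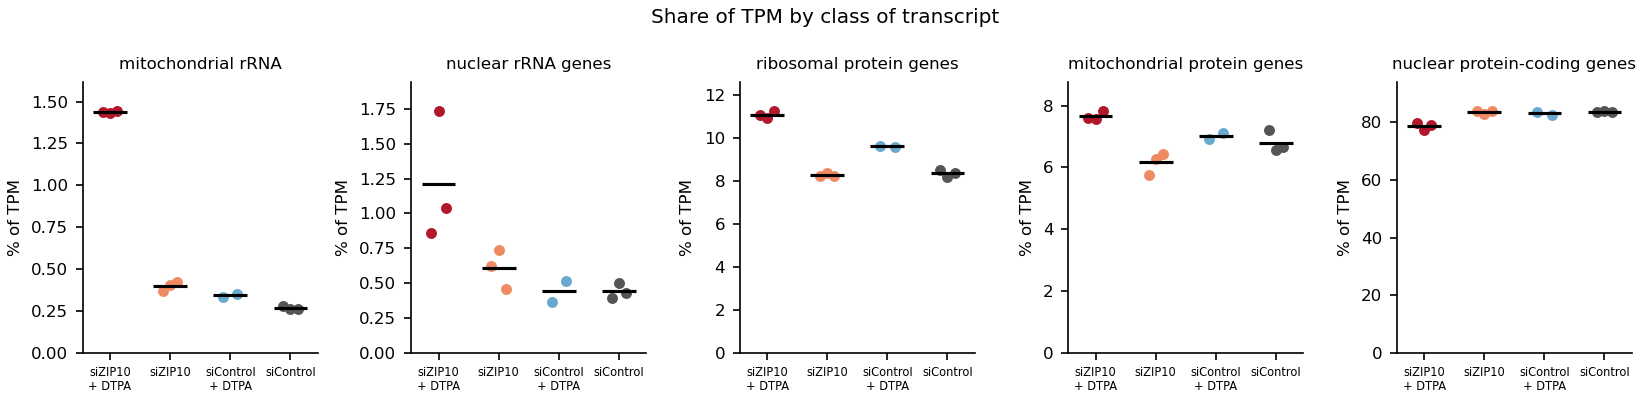
Share of TPM (%, y axis, from 0) held by 5 classes of transcript in each library (points) of siZIP10 + DTPA, siZIP10, siControl + DTPA and siControl, with the group mean as a line. Mitochondrial rRNA stood at 1.43% to 1.45% in the siZIP10 + DTPA libraries, against 0.262% to 0.282% in siControl, and nuclear protein-coding genes at 77.3% to 79.6% in siZIP10 + DTPA, against 83.6% to 83.8% in siControl.

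The combined treatment changed the level of most genes. In the moderated test of limma, 3041 genes (26.7% of those tested) were higher and 4542 genes (39.9%) were lower in siZIP10 plus DTPA than in siControl at an adjusted p of 0.05, together 66.6%. The 3 libraries of one group lay wholly above those of the other for 3304 genes that were higher (29%) and 4760 that were lower (41.8%). A change of at least 2-fold on the log2(TPM + 1) scale was passed by 479 of the higher genes (4.21% of those tested) and 617 of the lower ones (5.42%). The median over all tested genes was −0.08. Rescaled to nuclear protein-coding genes, 3776 genes were higher and 3927 lower, which moved the share of higher genes among calls from 40.1% to 49%, and the median was 0.01. Of the 7583 calls, 6968 held with the same sign after rescaling and 21 changed sign. Below, a value alone in parentheses after a gene is its log2 change against siControl on the same scale, past the test unless said otherwise, and a mean with ± is given with its SD over 3 libraries.

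**Figure D2:**
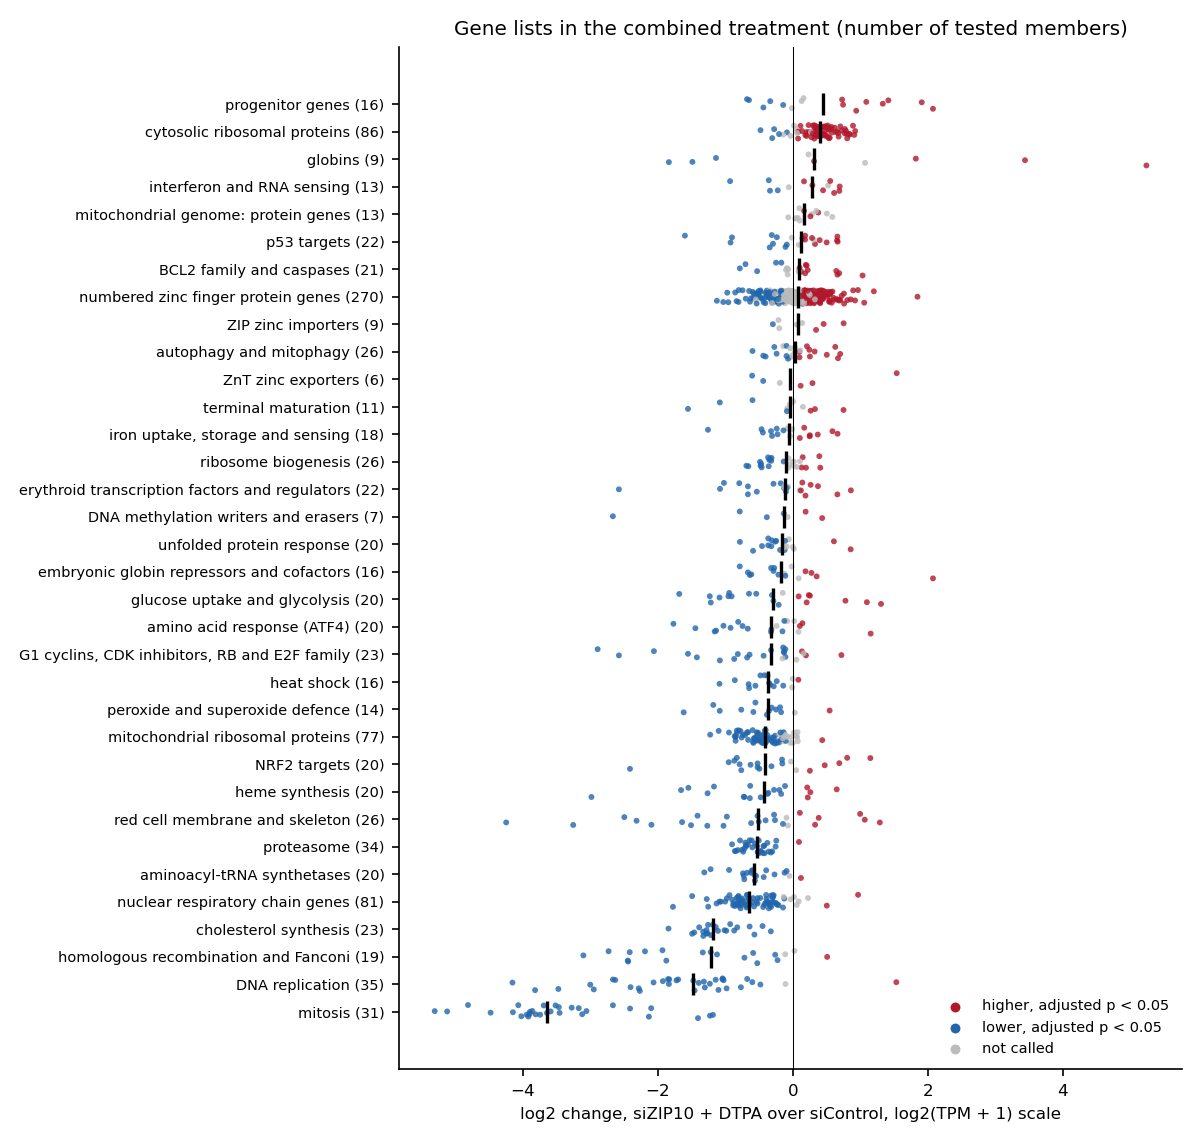
Log2 change (x axis, log2(TPM + 1) scale) of siZIP10 + DTPA over siControl for each tested member (points) of each gene list with at least 5 of them (rows, number tested in parentheses), coloured by call, with the median as a black bar. All 31 mitosis genes and all 23 cholesterol synthesis genes lie left of 0, and 75 of 86 cytosolic ribosomal protein genes were called higher.

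The zinc genes moved apart. Metallothionein transcripts were low in siZIP10 plus DTPA, whereas the transcript of the exporter ZnT1 was nearly 3 times as high as in siControl and the ZIP10 transcript nearly 2 times as high. Mt2 (ENSMUSG00000031762.7, chr8:94172664-94173568, plus strand; all coordinates are of build mm10) stood at 21.4, 26.2 and 18.6 TPM in siZIP10 plus DTPA, against 1963, 2108 and 2046 TPM in siControl (log2 change −6.48, SE 0.11, adjusted p = 9.04e-12). Mt1 (ENSMUSG00000031765.8, chr8:94179082-94180327, plus strand) stood at 280.2, 268 and 259 TPM in siZIP10 plus DTPA, against 1627, 1804 and 1689 TPM in siControl (log2 change −2.66, SE 0.05, adjusted p = 2.45e-11). The groups did not overlap for either gene, and Mt2 was at 1.08% and Mt1 at 15.8% of the siControl mean. Slc30a1 (ENSMUSG00000037434.7, chr1:191906767-191913247, plus strand) stood at 247, 232 and 247 TPM in siZIP10 plus DTPA, 112, 112 and 120.1 TPM in siZIP10, 92.5 and 87.6 TPM in siControl plus DTPA and 85.9, 80.4 and 81.2 TPM in siControl (log2 change 1.54, SE 0.04, adjusted p = 2.01e-10 against siControl). The 3 doubly treated libraries were thus the highest of all 11, and the change exceeded the sum of the single changes (interaction 0.95, SE 0.06, adjusted p = 1.92e-06).

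The first 3 windows below are promoters of MTF1 target genes, shown because Mt1, Mt2 and Slc30a1 moved in opposite directions; each runs from 250 bases before to 50 bases after the RefSeq transcription start (GRCm38.p6, the mm10 build), 5′ to 3′ on the gene's strand. Capitals mark matches to the core of the metal response element bound by MTF1 (TGCACNC or TGCGCNC, searched on both strands, overlapping matches joined). The windows are those of Mt1 (chr8:94178839-94179138, plus strand), Mt2 (chr8:94172368-94172667, plus strand) and Slc30a1 (chr1:191906531-191906830, plus strand).
Mt1: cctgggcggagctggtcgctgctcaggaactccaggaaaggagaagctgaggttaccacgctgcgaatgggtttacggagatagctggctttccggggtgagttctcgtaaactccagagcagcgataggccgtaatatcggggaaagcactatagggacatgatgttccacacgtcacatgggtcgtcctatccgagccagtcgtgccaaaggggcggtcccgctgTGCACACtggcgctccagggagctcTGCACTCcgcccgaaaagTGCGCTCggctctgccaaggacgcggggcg
Mt2: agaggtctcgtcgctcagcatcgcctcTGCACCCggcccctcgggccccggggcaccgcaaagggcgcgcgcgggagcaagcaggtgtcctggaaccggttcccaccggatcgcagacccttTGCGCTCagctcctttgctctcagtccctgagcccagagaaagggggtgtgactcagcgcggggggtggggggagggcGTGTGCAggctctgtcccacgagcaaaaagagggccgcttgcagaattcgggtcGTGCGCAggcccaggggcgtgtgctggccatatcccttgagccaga
Slc30a1: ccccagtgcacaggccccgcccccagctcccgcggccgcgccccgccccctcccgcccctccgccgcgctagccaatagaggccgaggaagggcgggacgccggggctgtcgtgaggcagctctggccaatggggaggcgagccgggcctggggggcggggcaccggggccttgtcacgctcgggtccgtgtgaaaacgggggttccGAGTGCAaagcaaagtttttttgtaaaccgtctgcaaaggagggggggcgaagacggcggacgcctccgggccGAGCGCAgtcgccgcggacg

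The Mt1 window held 3 matches, the Mt2 window 4 and the Slc30a1 window 2. Neither of the 2 RefSeq start windows of Slc39a10 (chr1:46925727-46926026 and chr1:46853569-46853868, minus strand) held one. These windows do not cover the start of the Slc39a10 gene entry given below, so the sequence around that start was not searched. At least 1 match was present for 40.8% of the 7733 tested genes with a window of this kind and for 28.2% of all 27025 genes with one. Matches were thus present in the metallothioneins, which fell, and in Slc30a1, which rose. Mtf1 itself stood at 16.8, 15.6 and 15.9 TPM in siZIP10 plus DTPA, against 23, 21.7 and 21.2 TPM in siControl (log2 change −0.42, SE 0.05, adjusted p = 3.5e-05).

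Slc39a10 (ENSMUSG00000025986.6, chr1:46807544-46892852, minus strand), the target of the siRNA, was expressed at a low level. It stood at 5.36, 4.93 and 5.02 TPM in siZIP10 plus DTPA (242, 250 and 212 reads), 0.539, 0.507 and 0.837 TPM in siZIP10, 22 and 20.3 TPM in siControl plus DTPA and 2.78, 2.31 and 2.78 TPM in siControl (129, 98 and 105 reads). Doubly treated libraries lay above siControl without overlap (log2 change 0.75, SE 0.10, adjusted p = 7.74e-05), above siZIP10 (1.91, SE 0.10, adjusted p = 6.32e-08) and below siControl plus DTPA (−1.86, SE 0.12, adjusted p = 3.25e-07). The transcript of the siRNA's target was thus lower than with DTPA alone but not lower than in siControl. With the copied library kept under its deposited label, the call against siControl was lost (adjusted p = 0.42).

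Of 9 tested ZIP importers 3 rose, 1 fell and 5 did not pass the test. The plasma membrane importer gene Slc39a8 was the most abundant and fell to 276 ± 3.58 TPM in siZIP10 plus DTPA, against 339 ± 3.66 TPM in siControl (SD, n = 3 each; log2 change −0.29, SE 0.02, adjusted p = 1.4e-06). Slc39a6 rose by 0.46 and Slc39a1 by 0.35 on the log2 scale, beside Slc39a10. The other 5 members, Slc39a3, Slc39a7, Slc39a9, Slc39a11 and Slc39a13, had changes between −0.21 and 0.14. With TPM rescaled as above, 5 of the 9 were higher and 1 was lower. Of 6 tested ZnT genes 3 rose and 2 fell. Slc30a9 fell to 35 ± 1.34 TPM in siZIP10 plus DTPA, against 53.6 ± 2.36 TPM in siControl (log2 change −0.60, SE 0.04, adjusted p = 2.54e-07), and Slc30a5, of the secretory pathway, fell by 0.44, while Slc30a7, of the Golgi, rose by 0.29. Of 270 tested zinc finger protein genes with numbered names, a class that needs zinc for its fold, 107 were higher and 61 lower. These are 39.6% and 22.6% (median 0.08), against 26.7% and 39.9% of all tested genes.

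**Figure D3:**
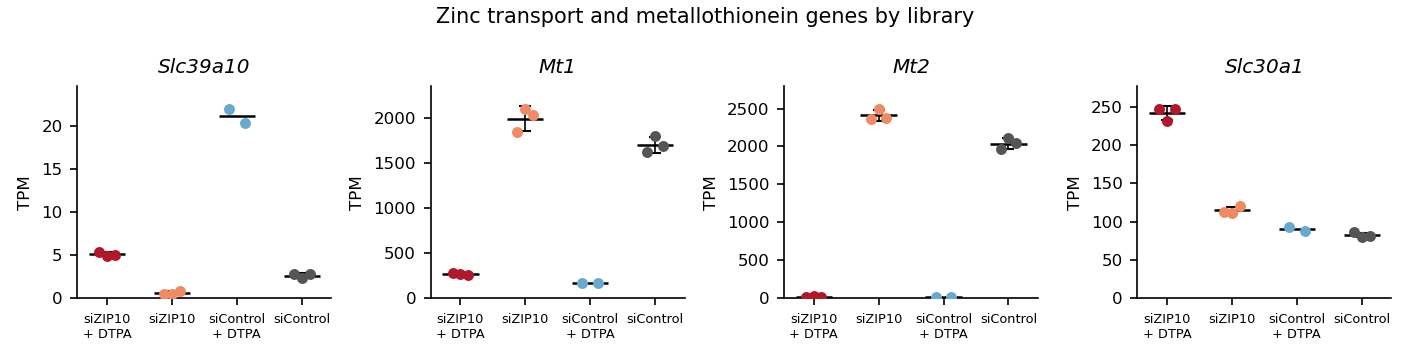
TPM (y axis, from 0) of Slc39a10, Mt1, Mt2 and Slc30a1 in each library (points) of siZIP10 + DTPA, siZIP10, siControl + DTPA and siControl, with the group mean as a line and the SD as bars where there are 3 libraries. Both metallothioneins are low in every library with DTPA, whereas the 3 siZIP10 + DTPA libraries hold the highest Slc30a1 values.

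Of the lists described here, the one of mitosis genes had the lowest median. All 31 tested mitosis genes fell, with a median log2 change of −3.64 against −0.08 over all tested genes. The 12 largest falls among protein-coding genes held many genes known from mitosis: Nusap1, Hmmr and Ckap2l of the spindle, the kinesins Kif4 and Kif18b, the cyclins Ccna2 and Ccnb2, the survivin gene Birc5 and Ube2c, which passes ubiquitin to targets of the anaphase-promoting complex. Nusap1 (ENSMUSG00000027306.15, chr2:119618298-119651244, plus strand) stood at 2.13, 2.1 and 1.74 TPM in siZIP10 plus DTPA, 51.6, 47.7 and 50.4 TPM in siZIP10, 50.3 and 51 TPM in siControl plus DTPA and 124, 111 and 116 TPM in siControl (log2 change −5.30, SE 0.06, adjusted p = 4.85e-13 against siControl). The 4 groups did not overlap except the single treatments with each other, and the doubly treated level was 1.7% of siControl. Ube2c (ENSMUSG00000001403.13, chr2:164769898-164778822, plus strand) stood at 4.88, 4.62 and 4.72 TPM in siZIP10 plus DTPA, against 194, 204 and 198 TPM in siControl (log2 change −5.12, SE 0.03, adjusted p = 1.57e-14). Ccnb1, the cyclin that starts mitosis, stood at 9.42, 9.47 and 10.9 TPM in siZIP10 plus DTPA, against 189.6, 177 and 179.6 TPM in siControl (log2 change −4.07, SE 0.05, adjusted p = 1.21e-12). The proliferation marker Mki67 stood at 11.2, 10.1 and 11.2 TPM in siZIP10 plus DTPA, against 176, 168 and 179 TPM in siControl (log2 change −3.89, SE 0.04, adjusted p = 4.85e-13). Each of these genes was at least 10 times as high in every siControl library as in any doubly treated one. The smallest falls of the list, named after their values were seen, were those of the centromere histone gene Cenpa (−1.18) and the chromosomal passenger genes Cdca8 (−1.23) and Incenp (−1.40). In bulk RNA, fewer dividing cells and less of these transcripts per cell cannot be told apart.

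Many mitotic genes share a promoter element called the cell cycle homology region (CHR), bound by the DREAM and MuvB complexes, often near CCAAT boxes bound by NF-Y. The windows of Ube2c (chr2:164769679-164769978, plus strand) and Ccnb2 (chr9:70421505-70421804, minus strand) are shown as examples of genes with the largest falls, with matches to TTTGAA or TTCGAA on either strand in capitals.
Ube2c: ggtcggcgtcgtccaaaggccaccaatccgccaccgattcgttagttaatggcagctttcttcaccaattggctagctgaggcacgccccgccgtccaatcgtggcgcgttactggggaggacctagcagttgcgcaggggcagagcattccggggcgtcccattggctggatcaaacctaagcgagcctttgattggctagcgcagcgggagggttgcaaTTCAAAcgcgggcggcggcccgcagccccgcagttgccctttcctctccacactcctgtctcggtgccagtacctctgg
Ccnb2: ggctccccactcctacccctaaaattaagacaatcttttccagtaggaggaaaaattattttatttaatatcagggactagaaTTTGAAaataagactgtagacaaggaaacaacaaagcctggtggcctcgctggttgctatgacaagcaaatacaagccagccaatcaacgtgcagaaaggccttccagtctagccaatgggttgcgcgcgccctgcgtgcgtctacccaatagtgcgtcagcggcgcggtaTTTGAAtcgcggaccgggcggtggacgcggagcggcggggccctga

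A CHR match was present for 21 of the 26 mitosis genes with a promoter window (80.8%), for 6 of 29 DNA replication genes (20.7%), for 16.3% of the 7733 tested genes with one and for 21.7% of all 27025 genes with one. A CCAAT match (either strand) was present for 22 of 26 mitosis genes (84.6%) and for 44.6% of tested genes. The window of Ube2c held 1 CHR match and 6 CCAAT matches and that of Ccnb2 2 and 3, while that of Nusap1, which fell most in the mitosis list, held neither. These matches describe the list and were not tested.

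DNA replication genes fell as a group but over a wider range. Of 35 tested, 33 fell, 1 rose and 1 did not pass, with a median of −1.47. Mcm5, of the replicative helicase, stood at 5.01, 4.07 and 5.78 TPM in siZIP10 plus DTPA, against 104, 104 and 104 TPM in siControl (log2 change −4.15, SE 0.09, adjusted p = 5.17e-11). The ribonucleotide reductase gene Rrm2 fell to 5.14 ± 0.403 TPM in siZIP10 plus DTPA, against 85.4 ± 2.14 TPM in siControl (SD, n = 3 each; log2 change −3.82), and the helicase gene Mcm6 (−3.47) and the loading factor gene Cdc6 (−3.0) followed. The sliding clamp gene Pcna fell less, to 28.4 TPM in siZIP10 plus DTPA, against 58.7 TPM in siControl (−1.02). Pola2, named after its value was seen, was the member that did not pass (−0.11, adjusted p = 0.0691).

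Genes that repair DNA by homologous recombination and the Fanconi pathway followed the replication genes, with 16 of 19 lower, 1 higher and a median of −1.21. Rad51ap1 (−3.10), Rad54l (−2.73) and Brca1 (−2.44) were among the largest falls, while Nbn, of the break-sensing MRN complex, rose by 0.51. Of 23 G1 cyclins, CDK inhibitors and members of the RB and E2F families, 17 fell and 3 rose (median −0.32). The S phase transcription factors E2f8 and E2f2, targets and feedback regulators of the E2F network, fell by 2.89 and 2.58, the G1/S cyclin Ccne1 by 2.06 and the pocket protein gene Rbl1 by 1.55. None of the tested CDK inhibitor genes was called higher. Cdkn2c was the most abundant of them in siControl and was named after its value was seen. It fell to 112 TPM in siZIP10 plus DTPA, against 302 TPM in siControl (−1.42). Cdkn1a, which encodes the CDK inhibitor p21, stood at 155, 158 and 161 TPM in siZIP10 plus DTPA, against 162, 181 and 169 TPM in siControl (log2 change −0.11, SE 0.04, adjusted p = 0.0287), and Cdkn1b, which encodes p27, at 223, 222 and 225 TPM in siZIP10 plus DTPA, against 248, 243 and 232 TPM in siControl (log2 change −0.11, SE 0.03, adjusted p = 0.00769). Among the rises, E2f3 was named after its value was seen (0.72). Once TPM was rescaled to nuclear protein-coding genes, the calls of Cdkn1a and Cdkn1b were lost (−0.02 each, adjusted p = 0.713 and 0.568).

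Among globin genes, the embryonic β-like genes Hbb-bh1 and Hbb-y rose many-fold and the adult α genes fell. The largest rise of all protein-coding genes was that of Hbb-bh1 (ENSMUSG00000052217.6, chr7:103841637-103843164, minus strand), an embryonic β-like globin gene. It stood at 5551, 5462 and 5248 TPM in siZIP10 plus DTPA, 132, 145 and 139 TPM in siZIP10, 1143 and 1134 TPM in siControl plus DTPA and 139.6, 145 and 142 TPM in siControl (log2 change 5.24, SE 0.04, adjusted p = 1.57e-14 against siControl). The doubly treated mean was 38.1-fold that of siControl, siZIP10 alone overlapped siControl, and the 3 doubly treated values lay far above those with DTPA alone (2.25, SE 0.04, adjusted p = 4.51e-11). Hbb-y, the embryonic εy gene (ENSMUSG00000052187.4, chr7:103851749-103853216, minus strand), stood at 251, 259 and 255 TPM in siZIP10 plus DTPA, 32.1, 30.7 and 27.3 TPM in siZIP10, 101 and 108 TPM in siControl plus DTPA and 28, 23.6 and 17.3 TPM in siControl (log2 change 3.44, SE 0.13, adjusted p = 2.6e-09 against siControl). Hbb-bh2, a further β-like gene of low level, stood at 3.63, 3.66 and 2.84 TPM in siZIP10 plus DTPA and 0.236, 0.515 and 0 TPM in siControl. It passed the filter on low genes only through the doubly treated libraries, so no test is given for it. Hba-x, the embryonic α-like ζ gene, did not share this pattern: it stood at 8.5, 5.9 and 5.54 TPM in siZIP10 plus DTPA, 2.33, 2.2 and 3.02 TPM in siZIP10, 13.6 and 13.7 TPM in siControl plus DTPA and 5.05, 5.52 and 5.67 TPM in siControl. Its doubly treated values overlapped siControl (log2 change 0.23, SE 0.14, adjusted p = 0.161) and lay below those with DTPA alone (−0.96, SE 0.16, adjusted p = 0.000405).

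The α genes on chromosome 11 were lower and the adult β gene Hbb-bs slightly higher. Hba-a1 (ENSMUSG00000069919.7, chr11:32283511-32284465, plus strand) stood at 4212, 4194 and 4042 TPM in siZIP10 plus DTPA, 11081, 10582 and 11039 TPM in siZIP10, 11761 and 11906 TPM in siControl plus DTPA and 10501, 12471 and 11998 TPM in siControl. The doubly treated libraries lay below all 8 others (log2 change −1.49, SE 0.05, adjusted p = 1.69e-09 against siControl), and its near-identical copy Hba-a2 fell by 1.83 (adjusted p = 2.45e-05). The θ gene Hbq1b, of the same locus, fell by 1.14. Adult Hbb-bs (ENSMUSG00000052305.6, chr7:103826534-103828096, minus strand) stood at 25750.0, 28222 and 26391 TPM in siZIP10 plus DTPA, against 20180.0, 22921 and 21491 TPM in siControl (log2 change 0.32, SE 0.06, adjusted p = 0.000768). That rise was not called under quantile normalization (0.19, adjusted p = 0.137) or with no filter on low genes (adjusted p = 0.0884). Hbb-bt varied too much to be called, with 11536, 5556 and 3249 TPM in siZIP10 plus DTPA and 3312, 3318 and 2043 TPM in siControl (log2 change 1.07, SE 0.48, adjusted p = 0.0721). Reads of Hba-a1 and Hba-a2, and of Hbb-bs and Hbb-bt, can be divided among near-identical copies in ways that were not checked here.

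Of 16 tested repressors and cofactors known for silencing embryonic globin genes, 4 rose and 9 fell, with a median of −0.17. These are 25% and 56.25%, against 26.7% and 39.9% of all tested genes. Bcl11a, the best known of them, stood at 3.28, 3.03 and 3.5 TPM in siZIP10 plus DTPA, 5.75, 6.02 and 6.16 TPM in siZIP10, 4.41 and 4.12 TPM in siControl plus DTPA and 5.76, 5.75 and 5.78 TPM in siControl (log2 change −0.66, SE 0.07, adjusted p = 1.27e-05 against siControl). Its doubly treated values were the lowest of the 4 groups. The maintenance methyltransferase gene Dnmt1 fell to 39.2 ± 1.61 TPM in siZIP10 plus DTPA, against 68.3 ± 1.93 TPM in siControl (SD, n = 3 each; log2 change −0.78, SE 0.04, adjusted p = 1.36e-08), and its partner Uhrf1 fell by 2.66. Nr2c1, which encodes the TR2 subunit of the direct repeat repressor, fell by 0.64, while Nr2c2, of the same family, rose by 0.28. Mbd2 (0.35) and Zbtb7a (0.19) also rose. These rises were named after their values were seen. The largest rise in this list was that of Myb, which is given below with the progenitor genes. Of 7 tested writers and erasers of DNA methylation, which include Dnmt1 and Uhrf1, 4 fell and 2 rose (57.14% and 28.57%).

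**Figure D4:**
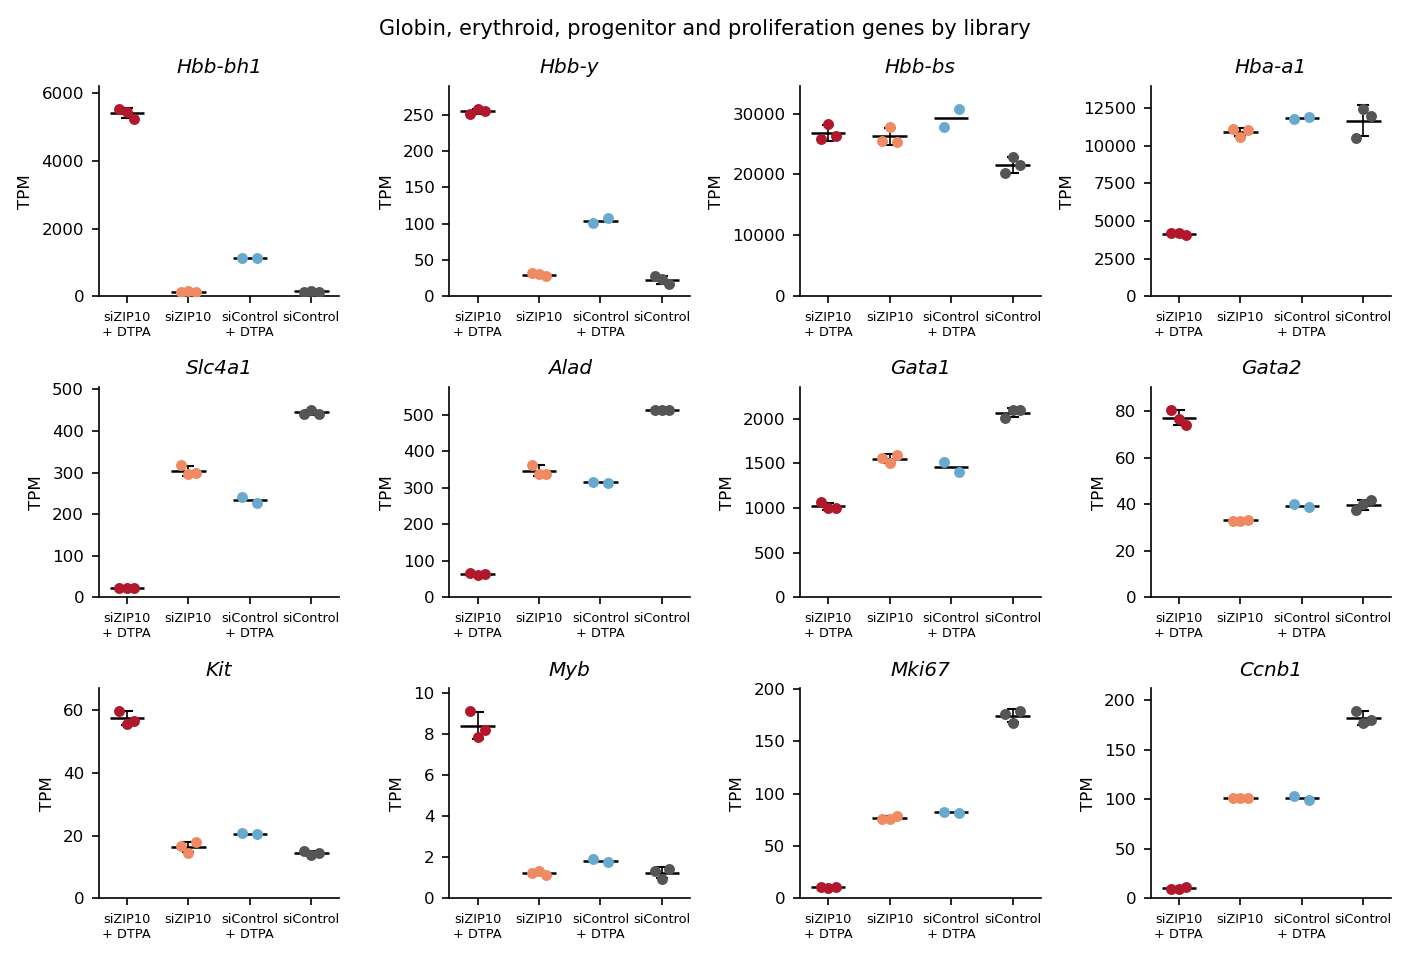
TPM (y axis, from 0) of 12 globin, erythroid, progenitor and proliferation genes in each library (points) of siZIP10 + DTPA, siZIP10, siControl + DTPA and siControl, with the group mean as a line and the SD as bars where there are 3 libraries. The siZIP10 + DTPA libraries hold the highest Hbb-bh1, Hbb-y, Gata2, Kit and Myb values and the lowest Hba-a1, Slc4a1, Alad, Gata1, Mki67 and Ccnb1 values of the 4 groups.

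Heme synthesis and red cell membrane genes were mostly lower. Of 20 tested genes of heme synthesis and porphyrin transport, 16 fell and 4 rose, with a median of −0.42. Alad (ENSMUSG00000028393.10, chr4:62509169-62519918, minus strand), the zinc-dependent enzyme of the second step, stood at 66.4, 61.4 and 64.8 TPM in siZIP10 plus DTPA, 364, 339 and 339 TPM in siZIP10, 317 and 313 TPM in siControl plus DTPA and 515, 514 and 514 TPM in siControl (log2 change −2.98, SE 0.03, adjusted p = 6.71e-13 against siControl). The 4 groups did not overlap, and the doubly treated level was 12.5% of siControl. The mitochondrial carriers Slc25a37, which imports iron, and Slc25a39 fell by 1.55 and 1.26. Alas2, the first and rate-limiting erythroid enzyme, went the other way, at 2367, 2343 and 2421 TPM in siZIP10 plus DTPA and 1992, 2075 and 2042 TPM in siControl (log2 change 0.22, SE 0.03, adjusted p = 3.1e-05). This rise reversed under quantile normalization (−0.03, adjusted p = 0.484). Flvcr1, which exports heme and was named after its value was seen, stood at 83.7, 80 and 83 TPM in siZIP10 plus DTPA, against 53.6, 49.9 and 52.5 TPM in siControl (log2 change 0.65, SE 0.05, adjusted p = 2.94e-07), and was the list's largest rise.

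Of 26 genes of the red cell membrane and skeleton 18 fell and 6 rose (median −0.51). Slc4a1 (ENSMUSG00000006574.15, chr11:102348824-102366203, minus strand), the band 3 anion exchanger, stood at 23.2, 21.7 and 22.8 TPM in siZIP10 plus DTPA, 317, 296 and 299.9 TPM in siZIP10, 241 and 226 TPM in siControl plus DTPA and 442, 452 and 442 TPM in siControl (log2 change −4.24, SE 0.04, adjusted p = 1.2e-13 against siControl). Its 4 groups did not overlap, and the doubly treated level was 5.06% of siControl. The Rh antigen gene Rhd (−3.25), the actin bundler dematin, Dmtn (−2.49), and the filament cap Tmod1 (−2.31) had the next largest falls. Among the rises, named after their values were seen, were Cd44, an adhesion receptor that red cell precursors lose as they mature (1.29), the Kell antigen gene Kel (1.07) and the adducin gene Add2 (1.0).

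The 3 tested carbonic anhydrase genes diverged. Car2, the abundant isoform of these cells, stood at 1645, 1602 and 1658 TPM in siZIP10 plus DTPA, against 4317, 4291 and 4163 TPM in siControl (log2 change −1.38, SE 0.02, adjusted p = 8.49e-12), and Car13 fell by 0.80. Car1 stood at 383, 397 and 407 TPM in siZIP10 plus DTPA, 42.3, 36.1 and 51.3 TPM in siZIP10, 96.8 and 84.8 TPM in siControl plus DTPA and 67.1, 60 and 66.7 TPM in siControl (log2 change 2.60, SE 0.10, adjusted p = 3.83e-09 against siControl). For Car1 the knockdown alone lay below siControl and DTPA alone above it, while the combination lay above both (interaction 2.69, SE 0.16, adjusted p = 8.83e-07).

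Iron genes were divided, with 7 of 18 higher and 8 lower (38.9% and 44.4%, against 26.7% and 39.9% of all tested genes; median −0.06). Glrx5, of iron-sulfur cluster assembly, fell by 0.46. Tfr2, a transferrin receptor gene active in erythroid and liver cells, rose by 0.66 and the iron exporter ferroportin, Slc40a1, by 0.59. Of 11 tested genes of terminal maturation, 3 rose and 4 fell (27.3% and 36.4%), near the shares over all tested genes. Trim10 (−1.55), Ucp2 (−1.08) and the mitophagy receptor Bnip3l (−0.60) fell, and the ubiquitin ligase gene Ube2o, which clears proteins from reticulocytes, rose to 189 ± 6.6 TPM in siZIP10 plus DTPA, against 112 ± 4.28 TPM in siControl (0.75).

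Transcription factors of the erythroid program and of progenitors were divided. Of 22 erythroid regulators 12 fell and 7 rose (54.55% and 31.82%, median −0.11), against 39.9% and 26.7% of all tested genes. With TPM rescaled as above 8 fell and 8 rose. Gata1 (ENSMUSG00000031162.14, chrX:7959260-7978071, minus strand) stood at 1064, 997 and 997 TPM in siZIP10 plus DTPA, 1561, 1502 and 1593 TPM in siZIP10, 1512 and 1404 TPM in siControl plus DTPA and 2005, 2101 and 2095 TPM in siControl (log2 change −1.02, SE 0.04, adjusted p = 2.19e-09 against siControl). The doubly treated values were the lowest, and the 2 single treatments overlapped each other between them and siControl. Gata1 reads may come from the introduced form, which was not told apart here. The erythropoietin receptor gene Epor fell to 70.9 ± 2.77 TPM in siZIP10 plus DTPA, against 151 ± 5.85 TPM in siControl (log2 change −1.08, SE 0.04, adjusted p = 2.37e-09), and Klf1, a GATA1 target and erythroid activator, to 542 ± 6.67 TPM in siZIP10 plus DTPA, against 662 ± 53.3 TPM in siControl (log2 change −0.29, SE 0.05, adjusted p = 0.000345). Stat5a, which signals below the erythropoietin receptor, rose by 0.86.

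Of 16 progenitor genes 8 rose and 5 fell (50% and 31.25%, against 26.7% and 39.9% of all tested genes), with a median of 0.45. Myb, a driver of progenitor growth, stood at 9.13, 7.86 and 8.2 TPM in siZIP10 plus DTPA, 1.24, 1.33 and 1.16 TPM in siZIP10, 1.92 and 1.75 TPM in siControl plus DTPA and 1.32, 0.933 and 1.44 TPM in siControl (log2 change 2.08, SE 0.12, adjusted p = 6.17e-08 against siControl). Kit, the receptor for stem cell factor, stood at 59.8, 55.6 and 56.5 TPM in siZIP10 plus DTPA, 16.5, 14.5 and 17.8 TPM in siZIP10, 20.8 and 20.5 TPM in siControl plus DTPA and 15.2, 13.8 and 14.5 TPM in siControl (log2 change 1.91, SE 0.07, adjusted p = 1.17e-09 against siControl). Gata2, which GATA1 replaces on chromatin during maturation, stood at 80.7, 76.7 and 74.1 TPM in siZIP10 plus DTPA, 32.9, 33 and 33.3 TPM in siZIP10, 40.1 and 38.7 TPM in siControl plus DTPA and 37.6, 39.9 and 41.6 TPM in siControl (log2 change 0.94, SE 0.04, adjusted p = 1.08e-08 against siControl). For all 3 genes the doubly treated libraries lay above every other library, including those with DTPA or the siRNA alone. Spi1, which encodes PU.1, rose to 36.7 ± 1.19 TPM in siZIP10 plus DTPA, against 13.1 ± 0.875 TPM in siControl (log2 change 1.42, SE 0.06, adjusted p = 3.75e-09), and Myc to 57.4 ± 3.23 TPM in siZIP10 plus DTPA, against 22.3 ± 3.07 TPM in siControl (log2 change 1.33, SE 0.10, adjusted p = 7.64e-07). Myc thus rose in the libraries in which the cell division genes fell. Other rises, named after their values were seen, were those of Hhex (1.09), Fli1 (0.75), a factor of megakaryocytes and early progenitors, and Meis1 (0.73). Progenitor genes also fell, among them, named after their values were seen, Tcf3 (−0.68), Bmi1 (−0.65) and Runx1 (−0.33).

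The largest rises outside the globin locus were mostly of genes low in siControl, and several are known from other cell types. Alpk3, which encodes a muscle kinase, stood at 64.6, 59.9 and 61.4 TPM in siZIP10 plus DTPA, 4, 4.34 and 4.37 TPM in siZIP10, 9.67 and 9.94 TPM in siControl plus DTPA and 3.39, 2.77 and 2.88 TPM in siControl (log2 change 3.98, SE 0.07, adjusted p = 9.35e-12 against siControl). Hdc, the histamine-forming histidine decarboxylase of mast cells and basophils, stood at 20.7, 21.5 and 22.5 TPM in siZIP10 plus DTPA, against 1.21, 0.832 and 1.26 TPM in siControl (log2 change 3.43, SE 0.11, adjusted p = 7.86e-10). Tph1, which makes serotonin in mast cells and gut, stood at 19.1, 18.2 and 17.4 TPM in siZIP10 plus DTPA, 2.63, 2.26 and 2.57 TPM in siZIP10, 1.52 and 1.72 TPM in siControl plus DTPA and 2.19, 1.68 and 1.52 TPM in siControl (log2 change 2.79, SE 0.10, adjusted p = 2.21e-09 against siControl). For Hdc and Tph1 the 8 libraries without both treatments all lay at 2.63 TPM or less. Vim, the intermediate filament gene that erythroid precursors switch off, stood at 152, 158 and 161 TPM in siZIP10 plus DTPA, against 17.6, 16.9 and 18.3 TPM in siControl (log2 change 3.09, SE 0.04, adjusted p = 1.78e-12). The remaining largest rises were those of the thrombin receptor gene F2rl2 (3.38), Nyx (3.01), the Ras-like GTPase gene Rrad (2.99), Cd200r2 (2.96), the splicing factor gene Rbm20 (2.90), the carboxypeptidase gene Cpz (2.85) and the Rac activator gene Prex1 (2.80).

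Markers of other blood lineages were measured beside these rises. The 12 megakaryocyte markers summed to 153 to 161 TPM in siZIP10 plus DTPA and 106 to 117 TPM in siControl, of which Tubb1 alone held 97.4 TPM in siZIP10 plus DTPA and 94.7 TPM in siControl. Of the 5 that were tested 3 rose: the integrin genes Itgb3 (22.4 ± 0.607 TPM in siZIP10 plus DTPA, 5.96 ± 0.337 TPM in siControl, log2 change 1.75) and Itga2b (1.34) and the platelet receptor gene Gp1ba (1.68). Ppbp, Gp1bb and Gp6 were at 0 in both groups. The 10 mast cell and basophil markers summed to 97.4 to 102 TPM in siZIP10 plus DTPA and 38.9 to 43.0 TPM in siControl, nearly all of it Gata2 and Hdc, with Fcer1a, Mcpt8, Cma1 and Ms4a2 at 0 in both groups. The 13 myeloid markers summed to 5.98 to 6.80 TPM in siZIP10 plus DTPA and 2.33 to 3.43 TPM in siControl, nearly all of it Cd68. The 10 lymphoid markers summed to 2.38 to 3.25 TPM in siZIP10 plus DTPA and 0.296 to 1.08 TPM in siControl, nearly all of it Cd79a. The part of such cells in the rises was not tested.

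The protein synthesis machinery divided between the cytosol and mitochondria. Of 86 tested cytosolic ribosomal protein genes 75 rose (87.2%, against 26.7% of all tested genes) and 5 fell, with a median of 0.40, and 78 rose after rescaling. Rps15a stood at 313, 305 and 333 TPM in siZIP10 plus DTPA, against 183, 157 and 159.9 TPM in siControl (log2 change 0.93, SE 0.05, adjusted p = 5.3e-08), and Rps12 (0.89) and Rpl32l (0.84) rose by a similar amount. The 5 that fell, named after their values were seen, were Rps27l (−0.48), Rpsa (−0.30), Rpl7l1 (−0.28), Rps2 (−0.20) and Rpl14 (−0.09). Ribosomal protein genes have many pseudogenes with near-identical sequence, so their values are uncertain. The genes that assemble ribosomes did not follow: 5 of 26 rose and 13 fell (19.2% and 50%, median −0.10), against 26.7% and 39.9% of all tested genes. Among those that fell were Ebna1bp2 (−0.69) and Dkc1, of snoRNA particles and telomerase (−0.66).

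Of 77 mitochondrial ribosomal protein genes 62 fell and 1 rose (median −0.40), led by Mrps18c (−1.22), Mrpl55 (−1.10) and Mrpl28 (−0.94). Of 81 nuclear genes of the respiratory chain 73 fell and 2 rose (median −0.64). Ndufa4, a subunit of cytochrome c oxidase, stood at 104, 105 and 109 TPM in siZIP10 plus DTPA, 182, 194 and 188 TPM in siZIP10, 310.3 and 319.7 TPM in siControl plus DTPA and 377, 353 and 367 TPM in siControl (log2 change −1.77, SE 0.03, adjusted p = 2.03e-11 against siControl). The groups did not overlap, and siZIP10 lay closer to the doubly treated cells than siControl plus DTPA did. The ATP synthase gene Atp5o fell by 1.27 and the complex I gene Ndufb8 by 1.25. The 2 that rose, Cox7a1 (0.97), an isoform of a complex IV subunit known from muscle, and Cox7a2l (0.50), a supercomplex assembly factor, were named after their values were seen.

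No protein or rRNA gene of the mitochondrial genome was called lower. The rRNA genes mt-Rnr1 and mt-Rnr2 were the highest of all groups in the doubly treated libraries: mt-Rnr1 stood at 7917, 7844 and 8024 TPM in siZIP10 plus DTPA, 2343, 2538 and 2614 TPM in siZIP10, 2078 and 2163 TPM in siControl plus DTPA and 1714, 1609 and 1584 TPM in siControl (log2 change 2.28, SE 0.04, adjusted p = 1.7e-11 against siControl). mt-Rnr2 stood at 6450.0, 6503 and 6440.3 TPM in siZIP10 plus DTPA, against 1107, 1031 and 1033 TPM in siControl (log2 change 2.61, SE 0.05, adjusted p = 2.32e-11). The library kit selects poly(A) RNA, so these values measure the rRNA that passed that step. Of the 13 protein genes of the mitochondrial genome 3 rose, mt-Co1 (0.38), mt-Nd4 (0.26) and mt-Nd5 (0.17), and 10 did not pass. Under quantile normalization all 3 turned negative (−0.09, −0.24 and −0.17).

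The cholesterol, proteasome and aminoacyl-tRNA synthetase lists were mostly lower, and glycolysis genes were divided. All 23 tested genes of the cholesterol list, which holds synthesis enzymes, the LDL receptor gene and Srebf2, fell (median −1.18). SREBP2, the product of Srebf2, switches these genes on as a unit. Fdft1, which makes squalene, stood at 99.7, 98.2 and 98.7 TPM in siZIP10 plus DTPA, 287, 283 and 282 TPM in siZIP10, 228 and 224 TPM in siControl plus DTPA and 281, 283 and 275 TPM in siControl (log2 change −1.49, SE 0.02, adjusted p = 2.68e-12 against siControl). Values with the knockdown alone overlapped siControl, those with DTPA alone lay below both, and the doubly treated mean was 35.4% of siControl. Fdps (−1.84), Hsd17b7 (−1.46) and Mvk (−1.39) showed the other large falls. Of 34 proteasome genes 33 fell, with a median of −0.52 and Psmc5 (−0.90) and Psma7 (−0.86) in the lead, and the exception, named after its value was seen, was Nfe2l1, which encodes the transcription factor that induces them (0.09). Of 20 aminoacyl-tRNA synthetase genes 18 fell and 1 rose (median −0.58), led by Vars (−1.31) and Aars (−1.22). In glycolysis 12 of 20 genes fell and 7 rose (60% and 35%, against 39.9% and 26.7% of all tested genes). The red cell pyruvate kinase gene Pklr fell to 27.2 ± 1.25 TPM in siZIP10 plus DTPA, against 89.5 ± 1.66 TPM in siControl (−1.68). The hexokinase gene Hk2 rose by 1.31, to 16.7 TPM in siZIP10 plus DTPA, against 6.16 TPM in siControl. Hk1, named after its value was seen, fell by 1.08, to 279 TPM in siZIP10 plus DTPA, against 593 TPM in siControl. It thus stayed well above Hk2.

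In the lists of stress responses more members fell than rose, as over all tested genes (39.9% lower and 26.7% higher). Members called lower made up 60% (unfolded protein response) to 85.7% (peroxide and superoxide defence) of each list on TPM as deposited. After rescaling, 3776 of all tested genes were higher and 3927 lower. Of 14 genes of peroxide and superoxide defence 12 fell and 1 rose (median −0.37). Gpx1, an abundant glutathione peroxidase of red cells, stood at 1184, 1192 and 1195 TPM in siZIP10 plus DTPA, against 3546, 3688 and 3713 TPM in siControl (log2 change −1.62, SE 0.03, adjusted p = 1.11e-11), and Txn1 (−1.18) and Prdx2 (−1.08) fell as well. Of 20 NRF2 targets 13 fell and 5 rose (median −0.40). The quinone reductase gene Nqo1 stood at 14.1, 11.8 and 14.7 TPM in siZIP10 plus DTPA, 72.8, 77.9 and 73.3 TPM in siZIP10, 38.6 and 40.6 TPM in siControl plus DTPA and 79.7, 73.9 and 74.3 TPM in siControl (log2 change −2.41, SE 0.07, adjusted p = 3.21e-10 against siControl), while the drug exporter gene Abcc1 rose by 1.15. Of 16 heat shock genes 13 fell and 1 rose, led by the co-chaperone genes Stip1 (−1.08) and Hsph1 (−0.86). Of 20 ATF4 targets of the amino acid response 13 fell and 3 rose: the one-carbon enzymes Shmt2 (−1.77) and Mthfd2 (−1.44) fell most, and the transcription factor gene Cebpb rose (1.16). The list of the unfolded protein response, of 20 tested genes, held 12 that fell and 2 that rose, Dnajb9 (0.86) and Herpud1 (0.61).

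Of 22 genes of the p53 list, which holds p53 targets and Trp53 itself, 10 were higher and 9 lower, with a median of 0.12. These are 45.5% and 40.9%, against 26.7% and 39.9% of all tested genes. Trp53 itself rose to 172 ± 2.15 TPM in siZIP10 plus DTPA, against 141 ± 3.31 TPM in siControl (log2 change 0.29, SE 0.03, adjusted p = 4.41e-06). The cell death genes Bbc3, which encodes PUMA, and Phlda3 rose, Bbc3 to 183, 176 and 182 TPM in siZIP10 plus DTPA, against 106, 122 and 113 TPM in siControl (log2 change 0.66, SE 0.05, adjusted p = 3.93e-07). Ckap2 (−1.60), which is also a mitotic gene, Sesn2 (−0.92) and Ei24 (−0.90) fell. Of 21 genes of the BCL2 family and caspases 10 rose and 5 fell (47.6% and 23.8%, against 26.7% and 39.9% of all tested genes). Bcl2l1, the survival factor BCL-XL of maturing red cells, stood at 124, 121 and 125 TPM in siZIP10 plus DTPA, 239, 236 and 232 TPM in siZIP10, 220.2 and 221 TPM in siControl plus DTPA and 199.7, 204 and 200.0 TPM in siControl (log2 change −0.70, SE 0.02, adjusted p = 6.08e-10 against siControl). Both single treatments lay above siControl and the combination below it. The death-promoting genes Bok (1.03) and Bcl2l11, which encodes BIM (0.69), rose, and Bak1 fell (−0.78). In autophagy and mitophagy 10 of 26 genes rose and 8 fell (38.5% and 30.8%), and after rescaling 14 rose and 5 fell. The receptor gene Sqstm1 rose to 1079 ± 13.4 TPM in siZIP10 plus DTPA, against 662 ± 16.2 TPM in siControl (0.70), as did the starter kinase gene Ulk1 (0.67). Of 13 interferon and RNA sensing genes 7 rose and 4 fell (53.85% and 30.77%). The RNA sensor gene Ifih1 rose (0.70), at under 6 TPM, and Ifi35 fell (−0.93). Ddx58, a further RNA sensor gene counted among the 7, averaged 1.82 TPM in siZIP10 plus DTPA and 0.727 TPM in siControl. Usp18, also counted among the 7, averaged 1.68 TPM in siZIP10 plus DTPA and 0.747 TPM in siControl. The siControl means of Ddx58 and Usp18 lay below the filter of 1 TPM, so no test is given for them.

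How the combination differed from each treatment alone was asked by 3 tests in the same fit. Against siControl plus DTPA, 2426 genes (21.3%) were higher and 3611 (31.7%) lower with both treatments, together 53.1%. Against siZIP10, 2623 genes (23.1%) were higher and 4248 (37.3%) lower, together 60.4%. The change with both treatments departed from the sum of the single changes on the log2 scale for 3687 genes (32.4%), 1369 above it (12%) and 2318 below it (20.4%). That balance depended on scaling: with TPM rescaled to nuclear protein-coding genes, 2124 genes lay above the sum and 1786 below it. More genes stayed below the sum with median-of-ratios scaling (1806 above, 2117 below) and quantile normalization (1687 above, 2132 below). The same held for voom on reads recovered from the TPM values (1991 above, 2229 below). The comparisons of each treatment with siControl share the siControl libraries. Of the single treatments, siZIP10 changed 1493 genes upward (13.1%) and 1987 downward (17.5%), and siControl plus DTPA 1136 upward (9.98%) and 2136 downward (18.8%).

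In several of the lists that fell, the doubly treated cells lay beyond both single treatments. By list, counts against the sum or against a single treatment were made only on TPM as deposited. Over all tested genes, 3248 were lower and 1903 higher with both treatments than with either alone. The mitosis list had a median of −3.64 in siZIP10 plus DTPA, −1.26 in siZIP10 and −1.0 in siControl plus DTPA, each against siControl, and all 31 genes were lower with both than with either alone. In 28 of the 31 the fall was larger than the sum of the single falls, with departures from that sum of −2.90 for Nusap1, −2.84 for Ube2c and −2.39 for Ccnb1. DNA replication genes came closer to additivity, with 15 of 35 below the sum and 2 above it, at medians of −1.47 in siZIP10 plus DTPA, −0.70 in siZIP10 and −0.56 in siControl plus DTPA. Cholesterol synthesis genes had medians of −1.18 in siZIP10 plus DTPA, −0.08 in siZIP10 and −0.32 in siControl plus DTPA, with 21 of 23 below the sum. Red cell membrane genes had medians of −0.51 in siZIP10 plus DTPA, −0.03 in siZIP10 and −0.07 in siControl plus DTPA, with 18 of 26 below the sum, and heme genes had −0.42 in siZIP10 plus DTPA, −0.12 in siZIP10 and −0.06 in siControl plus DTPA, with 12 of 20 below it.

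**Figure D5:**
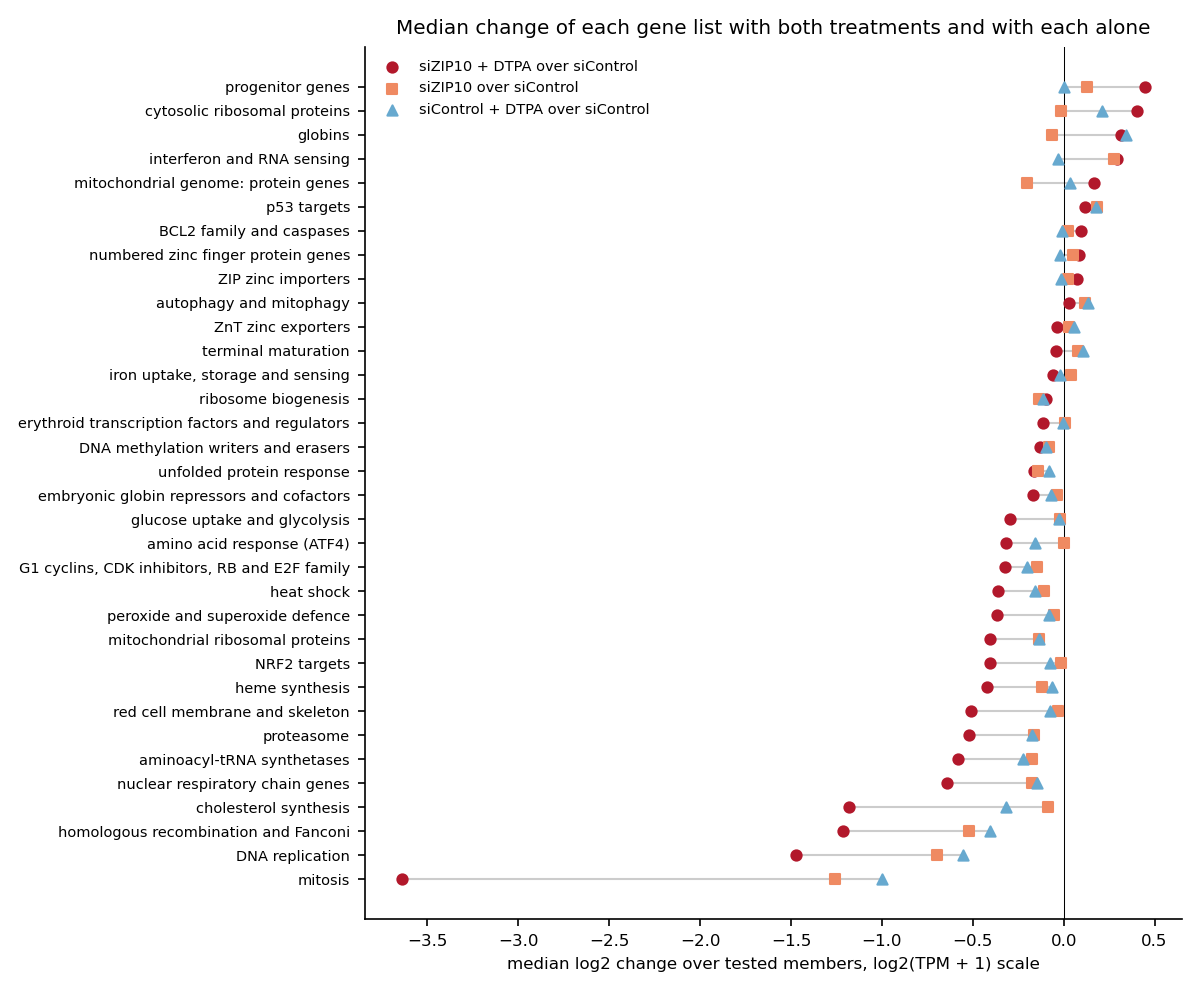
Median log2 change (x axis, log2(TPM + 1) scale) over the tested members of each gene list with at least 5 of them (rows) for siZIP10 + DTPA (circles), siZIP10 (squares) and siControl + DTPA (triangles), each over siControl, whose libraries all 3 share. The mitosis list stands at −3.64 with both treatments, −1.26 with siZIP10 and −1.0 with DTPA, and the progenitor list at 0.45 with both, 0.13 with siZIP10 and 0.00 with DTPA.

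Ribosomal protein genes mostly lay above both single treatments (64 of 86), and 8 of 16 progenitor genes did. Cytosolic ribosomal protein genes had medians of 0.40 in siZIP10 plus DTPA, −0.01 in siZIP10 and 0.21 in siControl plus DTPA, and 62 of 86 lay above the sum of the single changes. Progenitor genes lay above the sum in 8 of 16 cases, with Myb (1.72), Kit (1.28) and Gata2 (1.21) among them. Of 22 genes of the p53 list, 10 were higher and 9 lower than siControl with both treatments. With siZIP10 12 were higher and 2 lower, and with siControl plus DTPA 13 were higher and 2 lower. The medians were 0.12 in siZIP10 plus DTPA, 0.18 in siZIP10 and 0.18 in siControl plus DTPA, and 15 genes lay below the sum. Autophagy genes showed a like pattern on TPM as deposited, with 16 of 26 higher in siZIP10, 12 in siControl plus DTPA, 10 in siZIP10 plus DTPA and 14 below the sum. After rescaling, 14 were higher in siZIP10 plus DTPA. The counts of the single treatments and those against the sum were not made on that scale. The metallothioneins were low with DTPA whether or not the siRNA was present, and slightly higher with it. Mt1 averaged 269 TPM in siZIP10 plus DTPA and 173 TPM in siControl plus DTPA (0.64, SE 0.06, adjusted p = 6.55e-06), and Mt2 averaged 22.1 TPM in siZIP10 plus DTPA and 17.1 TPM in siControl plus DTPA (0.35, SE 0.12, adjusted p = 0.033). Gata1 departed from the sum by −0.10 (SE 0.06, adjusted p = 0.212), which did not pass the test.

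The large changes against siControl were similar on TPM rescaled to nuclear protein-coding genes. There the Hbb-bh1 log2 change was 5.33, the Slc4a1 log2 change −4.16, the Mki67 log2 change −3.81, the Gata1 log2 change −0.93 and the mt-Rnr1 log2 change 2.37. All 31 mitosis and all 23 cholesterol genes were again lower, as were 71 of 81 nuclear respiratory chain genes, 33 of 34 proteasome genes, 17 of 26 red cell membrane genes and 14 of 20 heme genes.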

How the data were processed

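Poly(A) RNA libraries of G1E-ER4 cells were used as TPM values per gene that the authors deposited. Per the submitters' processing notes, the tools named are Trimmomatic 0.33, FastQC, HISAT2 2.1.0, featureCounts and edgeR, with build mm10; how strand was used in counting is not given in the sources used here, so overlapping and antisense genes are uncertain. Because TPM is a share of a whole, a rise of one class lowers all others. The smallest steps between low values let reads be recovered: 98.9% to 99.1% of values up to 20 reads came out whole within 0.1, at 19.6 M to 24.7 M reads per library.

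The table holds 55487 gene entries. The labels call the samples biological replicates and do not say whether cultures were separate, so p-values measure the spread between these samples. The 11 distinct libraries in 4 groups were fitted together on log2(TPM + 1), for the 11379 genes averaging 1 TPM or more, with limma 3.58.1 in R 4.3.3 (trended variance, 7 residual degrees of freedom, Benjamini-Hochberg adjustment, threshold 0.05). Log2 changes are on this scale, which understates changes of low genes, while folds and percentages of siControl are ratios of mean TPM. Every adjusted p is from this fit unless another setting is named. Shares of TPM were compared by exact permutation tests. Genes were named by a rule (fixed genes, the 12 largest rises and 12 largest falls, the 6 largest interactions each way, and up to 4 members per list), and others are said to have been named after their values were seen or are listed as members that did not pass, parts of a family or markers. The members and lists were chosen with earlier results of these data known. Gene positions came from GENCODE M21, and promoters from RefSeq (GRCm38.p6). The alternatives tried were 3 other scalings, a pseudocount of 0.1, no filter or one at 5 TPM, voom on the recovered reads, other models, the copied library kept as labelled, and each library left out. Most list members are counted but not named, and some are not reported here.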

Additional observations from a re-analysis of the deposited data

Results flagged for a closer look

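Listed here are 15 of the 3687 genes for which the change with both treatments differed from the sum of the changes with each alone. The test was the interaction term of the limma fit on the log2 scale. The departure from the sum was positive for F2rl2 (2.817), Car1 (2.695), Cd200r2 (2.558), Tph1 (2.551), Hdc (2.376), Hbb-bh1 (2.288), mt-Rnr2 (1.795), mt-Rnr1 (1.292) and Slc30a1 (0.9457). It was negative for Nusap1 (-2.9), Ube2c (-2.843), Hmmr (-2.774), Slc4a1 (-2.771), Esco2 (-2.564), which joins sister chromatids, and Ccnb1 (-2.386). These genes were the fixed genes, the largest interactions of the naming rule and the genes of mitochondrial rRNA. For Hbb-bh1, the level with DTPA alone was already above siControl, whereas the mitotic genes were below siControl with either treatment. Each of these departures was tested on the log2 scale, where additive changes multiply.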

How the results depend on the processing

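Counts of genes higher and lower in siZIP10 plus DTPA than in siControl stayed within 1.5 times of 3041 and 4542 under all alternatives run. Leaving out 1 library gave 2757 to 3046 higher and 4292 to 4546 lower genes, and 947 to 1331 positive and 1798 to 2243 negative interactions. The mitochondrial rRNA difference was 1.17 to 1.18 percentage points in those runs. Scaling set the balance of calls. The share of higher genes was 40.1% as deposited, 49% rescaled to nuclear protein-coding genes, 49.2% by median of ratios, 50.2% by quantiles and 47.1% with voom on the recovered reads. Positive interactions numbered 2124 after the nuclear rescaling, against 1369 as deposited, and the cause was not tested. By median of ratios, by quantiles and with voom, negative interactions still outnumbered positive ones. Same-numbered libraries of the 2 groups showed no clear shared deviation (r 0.013 to 0.032). With 3 libraries per group this cannot show whether same-numbered libraries were prepared together. A replicate block gave 3017 higher and 4565 lower genes (3746 and 3892 with the nuclear rescaling). Among the 175 named genes, these values reversed: under quantile normalization the changes of Alas2 (-0.0255), Cdkn1a (0.0919), Cdkn1b (0.036), mt-Co1 (-0.0917), mt-Nd4 (-0.24) and mt-Nd5 (-0.17); with voom the Slc39a10 interaction (0.0586); and with the copied library kept as labelled the interactions of Slc39a10 (0.58) and Mt1 (-0.73). The call of mt-Nd5 was also lost without 1 of several libraries. So was that of Usp18, whose siControl mean lay below the filter on low genes. The 2 siControl plus DTPA libraries limit every comparison with that group.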
